A study of Mus musculus with 9 samples.

Results

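The genes described here carry glucose across the cell membrane and commit it to glycolysis. They are the transporters Slc2a1, Slc2a3 and Slc2a4, the hexokinases Hk1 and Hk2, the isomerase Gpi1, the phosphofructokinase subunits Pfkl, Pfkm and Pfkp, and the regulator Pfkfb3. They were chosen by symbol with earlier results of these data known, so counts of calls among them are descriptive. Each of the 10 was found as a single row in every library, among 25175 symbols in all. RNA was sequenced from HL-1 cells, an immortalised mouse atrial cardiomyocyte line grown in Claycomb Medium, in 9 libraries of 3 groups. The groups were 5 µM ivermectin, 10 µM importazole and vehicle (0.1% DMSO), with 3 libraries each and 24 h of exposure in all of them. Ivermectin, known as an antiparasitic, is used in cell culture to block nuclear import through importin α/β, and importazole inhibits importin-β. The design therefore asks how transcripts respond when nuclear import is hindered. HL-1 is a single line, and whether the compound groups also received DMSO is not stated in the labels. Nothing in the labels ties a library to a culture of its own, so p-values here reflect only how far these libraries spread, and that spread may be technical.

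Glucose enters cells through facilitative transporters. GLUT1, from Slc2a1, serves basal uptake in most tissues, GLUT3, from Slc2a3, is best known from neurons, and GLUT4, from Slc2a4, is moved to the surface of muscle and fat cells by insulin. Hexokinase then traps glucose as glucose 6-phosphate, Gpi1 turns this into fructose 6-phosphate, and phosphofructokinase-1 makes the committed step of glycolysis. That enzyme is built from liver (Pfkl), muscle (Pfkm) and platelet (Pfkp) subunits, and Pfkfb3 makes fructose 2,6-bisphosphate, its strongest activator. The adult heart burns mainly fatty acids, and glucose uptake and glycolysis rise in it when oxygen is short, in part through the hypoxia-inducible factor HIF-1.

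Values were FPKM as deposited (fragment counts divided by transcript length and by the library's mapped fragments), so levels can be set beside each other between genes. Read depth is unknown, because the values do not step in whole reads. Summed FPKM was 392482 to 409655 with ivermectin, 406804 to 410439 with importazole and 365259 to 416748 with vehicle. The transcript Yam1 was listed at 0 in ivermectin 3 and vehicle 2 and took 5.86% to 10.4% of the summed FPKM of each of the other 7 libraries. The cardiomyocyte label fits the markers: all 8 were above 1 FPKM in each group, at a sum of 6580 to 7110 FPKM with ivermectin, 7117 to 7647 with importazole and 7470 to 8549 with vehicle. Of 8 fibroblast markers Ddr2 alone reached a mean of 1 FPKM in a group, and the list summed to 37.1 to 39.1 FPKM with ivermectin, 34.8 to 37.2 with importazole and 23.8 to 27.0 with vehicle. The 6 endothelial markers summed to 9.17 to 10.2, 9.87 to 11.5 and 10.6 to 11.4 FPKM in ivermectin, importazole and vehicle libraries, and the 3 macrophage markers in the files to at most 2.29 FPKM in any library. The 4 smooth muscle markers, led by Acta2, summed to 1158 to 1279 FPKM with ivermectin, 1173 to 1285 with importazole and 1347 to 1404 with vehicle. Nearly all of that was Acta2 and Tagln, which averaged 137, 157 and 166 FPKM in ivermectin, importazole and vehicle libraries. In the same order Cnn1 averaged 0.773, 0.816 and 1.32 FPKM, and Myh11 0.101, 0.0958 and 0.0507 FPKM. The sum thus does not stand for the list. The part of these marker differences in the results below was not tested. In bulk RNA fewer cells of a type and less RNA per cell cannot be told apart.

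All 10 genes passed the filter on low values (at least 1 FPKM in at least 3 libraries), as did 11337 genes in all. Gpi1 was by far the most abundant of the 10, at 419 ± 36.3 FPKM with ivermectin, 547 ± 35.2 with importazole and 543 ± 9.94 with vehicle (mean ± SD, n = 3 each). In vehicle libraries the order below it was Pfkp (90.1 ± 1.99 FPKM), Hk1 (85.4 ± 4.998), Pfkm (73.0 ± 2.58), Slc2a1 (50.9 ± 0.705), Pfkl (47.2 ± 3.54), Hk2 (23.5 ± 0.989), Slc2a4 (19.7 ± 0.306), Slc2a3 (6.68 ± 0.844) and Pfkfb3 (4.80 ± 0.109). Pfkp and Hk1 overlapped there, as did Slc2a1 and Pfkl, and the other neighbours in this order did not. With ivermectin Pfkm stood above Pfkp and Hk1, and Slc2a1 and Pfkl came close to the levels of Slc2a4 and Hk2. The margin over Pfkp was narrow, with the lowest Pfkm library at 73.8 FPKM and the highest Pfkp library at 73.7 FPKM. Ivermectin levels were 25.2 ± 0.878 FPKM for Slc2a1, 21.99 ± 3.93 for Pfkl, 19.9 ± 0.773 for Slc2a4 and 17.9 ± 1.74 for Hk2. Pfkl overlapped Slc2a4 and Slc2a4 overlapped Hk2 among these, while Slc2a1 stayed above Pfkl.

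**Figure D1:**
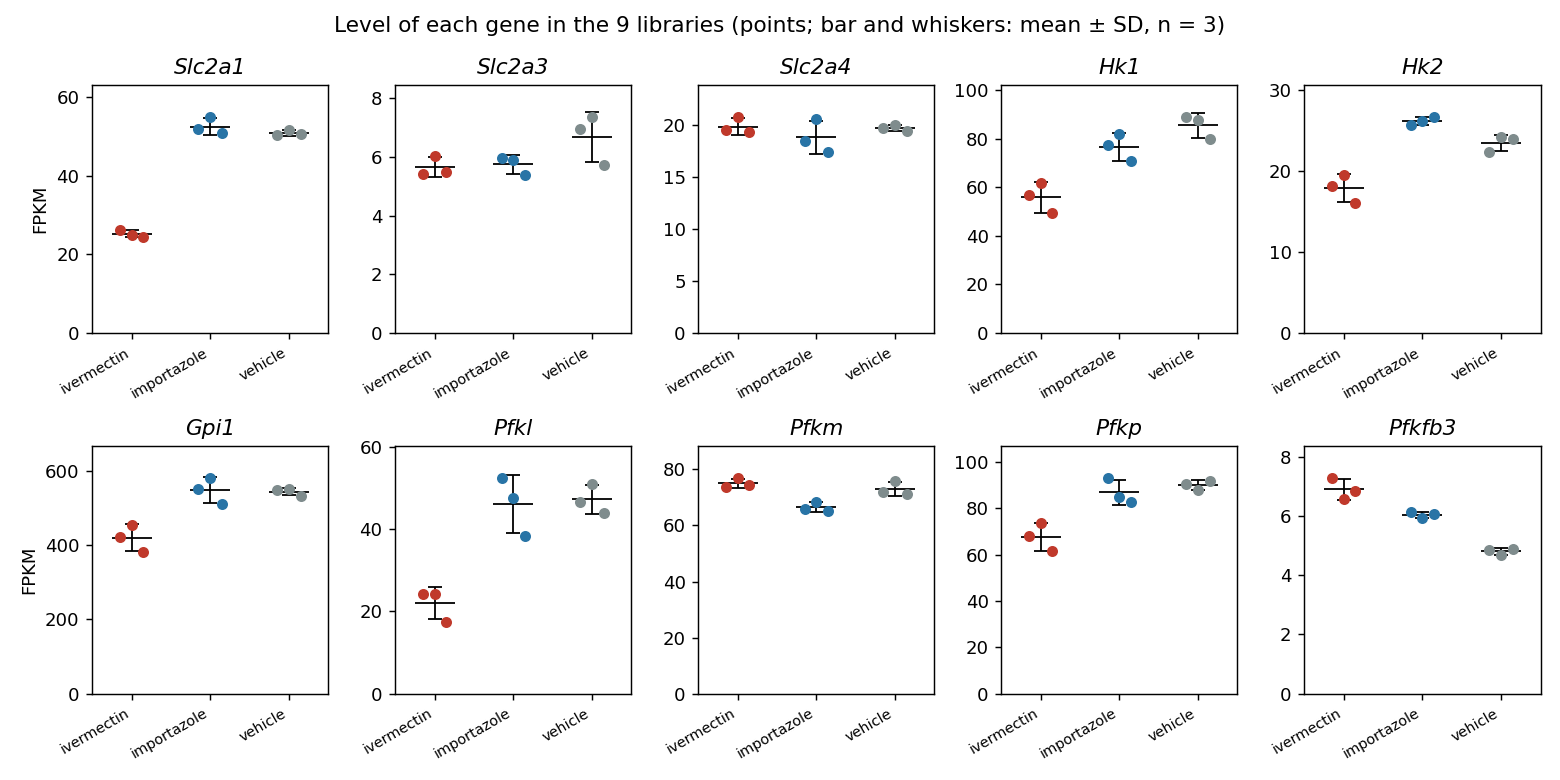
FPKM of each of the 10 genes, on axes that start at 0, with a point for each library and a bar and whiskers for mean ± SD (n = 3), in ivermectin, importazole and vehicle groups. Slc2a1 and Pfkl lay below 27 FPKM in the ivermectin libraries and above 38 FPKM in all others, while Slc2a4 and Pfkm overlapped between ivermectin and vehicle.

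With ivermectin, transcripts of glucose uptake, trapping and the committed step fell, but not every isoform passed the test. Slc2a1, Hk1, Hk2, Gpi1, Pfkl and Pfkp fell, Pfkfb3 rose, and Slc2a3, Slc2a4 and Pfkm did not pass the test. The 6 that fell compare with 2.52% of all genes tested called lower, and the 1 that rose with 1.79% called higher, in limma's test at a Benjamini-Hochberg adjusted p under 0.05 over all genes. Either way 4.31% of genes were called. The libraries of the groups did not overlap for these same 7 genes, 6 of them lower and 1 higher, where 12.2% of all genes tested lay wholly lower, 12.4% wholly higher and 24.6% either. The median log2 difference of the 10 was -0.38, beside 0.01 over all genes tested. Log2 differences are of FPKM + 1, which understates the change of low genes.

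Slc2a1, the basal glucose transporter (GRCm38 chromosome 4, 119108711 to 119137983, plus strand), was at 26.2, 24.9 and 24.5 FPKM in ivermectin 1, 2 and 3, against 50.4, 51.7 and 50.6 FPKM in vehicle 1, 2 and 3. Each ivermectin library lay below every vehicle library, and the mean was 50.5% lower. The log2 difference was -0.99 ± 0.06 (SE; limma adjusted p = 6.24e-06), and the call held without any one library. Slc2a4, the insulin-responsive transporter of muscle (chromosome 11, 69942539 to 69948188, minus strand), was at 19.5, 20.7 and 19.3 FPKM with ivermectin, against 19.7, 20.04 and 19.4 FPKM with vehicle. These libraries overlapped, and the log2 difference was 0.01 (95% interval -0.15 to 0.17), of which the sign turned under 2 of the scaling alternatives. Slc2a3, the high-affinity transporter (chromosome 6, 122727809 to 122801640, minus strand), was at 5.43, 6.04 and 5.49 FPKM with ivermectin, against 6.95, 7.35 and 5.73 FPKM with vehicle. Vehicle 3 lay within the ivermectin range, and the difference of -0.20 did not pass (95% interval -0.41 to 0.01, limma adjusted p = 0.262).

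Hk1, the hexokinase found in most tissues (chromosome 10, 62268855 to 62379908, minus strand), was at 56.7, 61.8 and 49.2 FPKM in the ivermectin libraries, against 88.7, 87.8 and 79.7 FPKM in the vehicle libraries. All ivermectin values lay below all vehicle values, with a mean 34.6% lower and a log2 difference of -0.61 ± 0.09 (limma adjusted p = 0.00335). Hk2, the hexokinase of insulin-sensitive muscle and of many tumours (chromosome 6, 82725025 to 82774454, minus strand), was at 18.1, 19.5 and 16.1 FPKM with ivermectin, against 22.3, 24.1 and 23.9 FPKM with vehicle. The groups again did not overlap, and the mean was 23.7% lower (log2 difference -0.38 ± 0.08, limma adjusted p = 0.0203). The Hk2 call ended without ivermectin 1, ivermectin 3, vehicle 2 or vehicle 3, with adjusted p of 0.0537, 0.0517, 0.0799 and 0.0681. Gpi1, which interconverts the hexose phosphates (chromosome 7, 34201330 to 34230336, minus strand), was at 422, 454 and 381 FPKM with ivermectin, against 548, 549.6 and 532 FPKM with vehicle. Its libraries did not overlap between groups and its mean was 22.8% lower (log2 difference -0.38 ± 0.07, limma adjusted p = 0.0174). The Gpi1 call ended without vehicle 1 or vehicle 2 (adjusted p = 0.0606 and 0.0691).

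The phosphofructokinase subunits differed in how they stood between groups. Pfkl, the liver-type subunit (chromosome 10, 77986947 to 78010083, minus strand), was at 24.3, 24.2 and 17.5 FPKM in ivermectin libraries, against 46.7, 51.0 and 44.0 FPKM in vehicle libraries. The groups were wide apart, with a mean 53.4% lower (log2 difference -1.08 ± 0.14, limma adjusted p = 0.00114), and 16 of 11337 genes had a larger fitted decrease. Pfkp, the platelet-type subunit (chromosome 13, 6579768 to 6648777, minus strand), was at 68.0, 73.7 and 61.5 FPKM with ivermectin, against 90.7, 87.8 and 91.7 FPKM with vehicle. It fell without overlap, with a mean 24.8% lower (log2 difference -0.41 ± 0.07, limma adjusted p = 0.0120). Pfkm, the muscle subunit (chromosome 15, 98092589 to 98132451, plus strand), was at 73.8, 76.9 and 74.5 FPKM with ivermectin, against 72.0, 76.0 and 71.2 FPKM with vehicle. The Pfkm libraries overlapped, and the log2 difference was 0.04 (95% interval -0.08 to 0.16, limma adjusted p = 0.729). The differences in response between subunits, and likewise between the transporters or the hexokinases, were not themselves tested. Exons on the opposite strand overlap Slc2a1, Hk1, Gpi1, Pfkm and Pfkp, and no source used here says whether reads were counted by strand, so these values are uncertain to that degree. An exon of Gm26513 overlaps Pfkm on its own strand, which counting by strand would not separate. The partners in the files were at 0.937 to 2.87 FPKM (Hk1os, at Hk1), 20.1 to 23.0 FPKM (Senp1, at Pfkm) and 22.1 to 27.2 FPKM (Pitrm1, at Pfkp).

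Pfkfb3, whose product makes the activator of phosphofructokinase-1 (chromosome 2, 11471433 to 11554077, minus strand), went the other way. It was at 7.28, 6.59 and 6.84 FPKM with ivermectin, against 4.86, 4.68 and 4.88 FPKM with vehicle. The lowest ivermectin library was above the highest vehicle library, and the level was 1.44-fold that of vehicle (log2 difference 0.44 ± 0.07, limma adjusted p = 0.00649). Without both libraries that list Yam1 at 0 the log2 difference was 0.43 and the calls of Pfkfb3, Hk2, Gpi1 and Pfkp ended (adjusted p = 0.0696, 0.140, 0.111 and 0.0714), while Slc2a1, Hk1 and Pfkl stayed called. Library 3 was the lowest of its group in 7 of the 10 genes with ivermectin, in 8 with importazole and in 6 with vehicle. Over all genes tested it was lowest in 30.4%, 34.7% and 39.4% of genes in these groups.

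The share of each isoform in its family's summed FPKM is a description with no test. Summed FPKM of Slc2a1, Slc2a3 and Slc2a4 was 50.7 ± 1.24 with ivermectin, 77.04 ± 3.93 with importazole and 77.3 ± 1.68 with vehicle. Slc2a1 made up 49.7% ± 1.53 of that sum with ivermectin, 68.1% ± 0.806 with importazole and 65.9% ± 0.806 with vehicle. The share of Slc2a4 was 39.2% ± 0.998 with ivermectin, 24.4% ± 0.832 with importazole and 25.5% ± 0.159 with vehicle. The ivermectin shares of Slc2a1 (48.2% to 51.2%) lay below, and those of Slc2a4 (38.1% to 40.1%) above, all shares in the other 6 libraries.

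The phosphofructokinase sum was 165 ± 10.8 FPKM with ivermectin, 199.6 ± 12.7 with importazole and 210.3 ± 4.10 with vehicle. Pfkl made up 13.3% ± 1.70 of it with ivermectin, 23.0% ± 2.16 with importazole and 22.4% ± 1.24 with vehicle. Pfkm made up 45.7% ± 2.49, 33.4% ± 1.97 and 34.7% ± 0.561 in ivermectin, importazole and vehicle libraries, and Pfkp 41.1% ± 1.03, 43.6% ± 1.13 and 42.8% ± 1.77. By mean share Pfkm was thus the most abundant subunit with ivermectin, and Pfkp with importazole and vehicle. The order with ivermectin is uncertain, because exons of other genes overlap both Pfkm and Pfkp and their levels there were close. The hexokinase sum was 73.8 ± 8.08 FPKM with ivermectin, 102.7 ± 5.45 with importazole and 109 ± 4.595 with vehicle. Hk2 was 24.3% ± 0.317 of it with ivermectin, 25.5% ± 1.68 with importazole and 21.6% ± 1.499 with vehicle. The Hk2 shares with ivermectin, 24.0% to 24.6%, and with importazole, 24.2% to 27.4%, lay above those with vehicle, 20.1% to 23.1%.

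**Figure D2:**
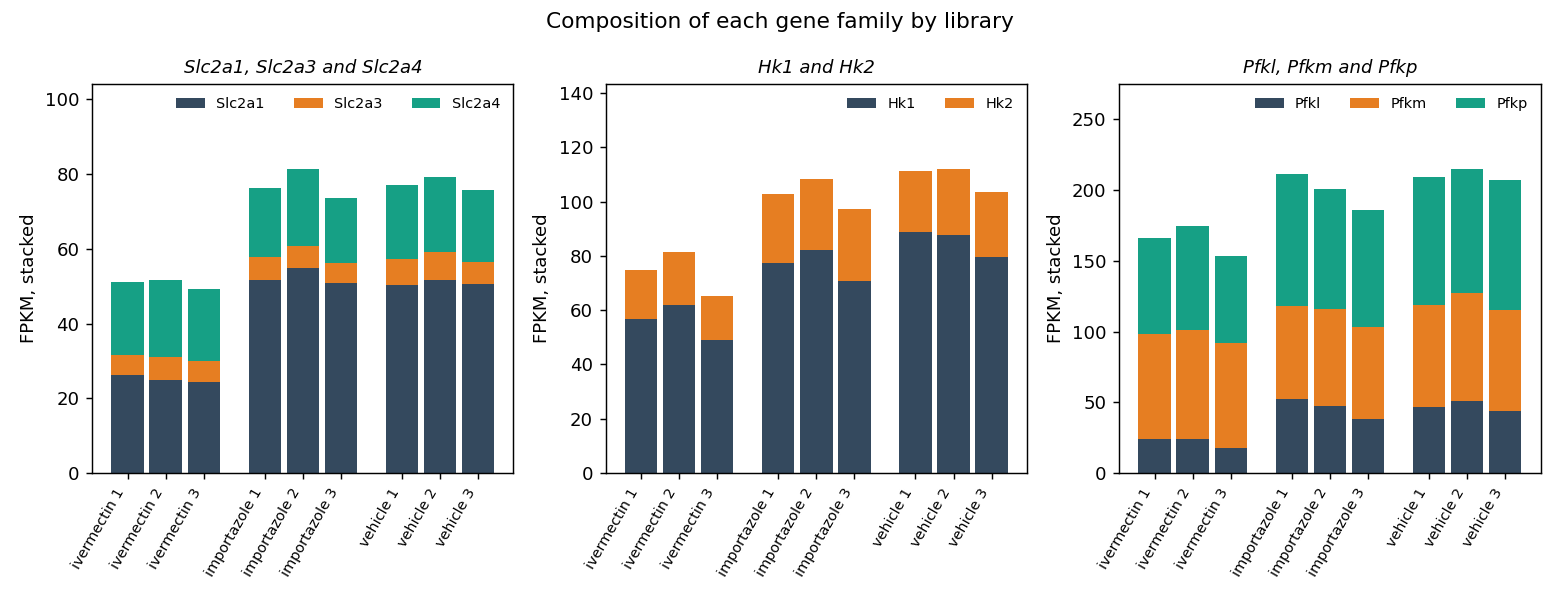
Stacked FPKM of the 3 transporters, the 2 hexokinases and the 3 phosphofructokinase subunits, a bar for each library, in ivermectin, importazole and vehicle groups. The Slc2a1 and Pfkl segments are shorter in the 3 ivermectin bars (Slc2a1 at 24.5 to 26.2 FPKM, Pfkl at 17.5 to 24.3 FPKM), while those of Slc2a4 and Pfkm (73.8 to 76.9 FPKM) overlap between ivermectin and vehicle.

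Several of these genes, Slc2a1, Hk2 and Pfkfb3 among them, are known HIF targets in mammals, so their promoters were searched for the core letters of the HIF binding site, ACGTG or GCGTG, on both strands. Windows ran from 250 bases before to 50 after a RefSeq start (GRCm38.p6), and 8 of the 10 genes had 13 windows in all. No window was held for Slc2a3 and Slc2a4. The core was found in 10 of the 13 windows, and in 43.8% of all 32851 windows in the table. The windows of Pfkm starts 2 and 3 overlap and share a match, which was counted in both, so the 13 are not independent. The E-box CACGTG, which holds ACGTG on both strands and so counts as 2 matches, was in 2 of the 13, 1 each of Pfkm and Pfkfb3, and in 7.2% of all windows. A match is a description of letters, not a site bound in these cells. The windows below show the matches of the genes that fell furthest, Slc2a1 and Pfkl, of Hk2 and Pfkp that fell by less, and of Pfkfb3 that rose, with the 5 core letters, or their complement on the other strand, in capitals.
Slc2a1, 61 bases before the start, chr4:119108674-119108698, plus strand: cccacagaacCACGCctctcagagt
Slc2a1, 36 bases before the start, chr4:119108699-119108723, plus strand: cccgccccggACGTGctccccaggc
Pfkl, 99 bases before the start, chr10:78009892-78009916, minus strand: ttgtagactgGCGTGcgctccgcct
Hk2, 226 bases before the start, chr6:82774666-82774690, minus strand: ccacggaacaCACGTcccaactctg
Hk2, 52 bases before the start, chr6:82774492-82774516, minus strand: tgagcacatcCACGTcactgtccgg
Pfkp, 68 bases before the start, chr13:6648825-6648849, minus strand: ccccgcccttGCGTGagtcccgccc
Pfkfb3, 60 bases before its upstream start, chr2:11553975-11553999, minus strand: ccgcgccgtgACGTGccaagctgtg
Pfkp held 4 matches in its window, of which 1 is shown. Pfkfb3 held 4 matches at its downstream start, 2 of them from the E-box, which are not shown, and 1 at its upstream start, which is. Whether match counts go with the differences was not tested, and sequence outside these windows was not searched. Hk1 held 5 matches at its downstream start, 2 of them overlapping, and 0 at its upstream one. Gpi1, which fell, held 0, and Pfkm, which did not pass, held 3, 2, 1 and 0 at its 4 starts. Base composition differed, with 57.3% GC in the Gpi1 window, 62.3% in that of Pfkl, 65.3% in that of Slc2a1 and 36.7% at the first Pfkm start.

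With importazole none of the 10 genes passed limma's test against vehicle. In that comparison 2.26% of all genes tested were called, 1.69% higher and 0.565% lower, which is 192 higher and 64 lower genes, or 159 and 117 after quantile normalization. At an unadjusted p under 0.05 there were 2 of the 10, Pfkfb3 and Pfkm, beside 1788 of the 11337 genes tested. Libraries of the groups did not overlap for Pfkfb3 and Hk2, both higher with importazole, and for Pfkm, lower, where 16.5% of all genes tested lay wholly higher, 7.07% wholly lower and 23.6% either. The median log2 difference of the 10 was -0.05, beside 0.04 over all genes tested. The 2 comparisons with vehicle share its 3 libraries.

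Slc2a1 was at 51.8, 54.9 and 50.8 FPKM in importazole 1, 2 and 3, and the vehicle values of 50.4 to 51.7 FPKM overlapped the lower end of that range. The log2 difference was 0.04 (95% interval -0.09 to 0.17), so a decrease as large as that with ivermectin lay outside the interval. Its sign turned under median-of-ratios scaling and under rescaling without Yam1. Pfkl was at 52.4, 47.5 and 38.4 FPKM with importazole, a wide range that contained all vehicle values (log2 difference -0.04, 95% interval -0.35 to 0.26), and its sign turned without importazole 3 or vehicle 2. Hk1 was at 77.2, 82.0 and 70.6 FPKM with importazole, overlapping vehicle, with a difference of -0.16 (95% interval -0.35 to 0.04). Hk2 was at 25.6, 26.1 and 26.6 FPKM with importazole, above the 22.3 to 24.1 FPKM of vehicle, but the difference of 0.15 did not pass (limma adjusted p = 0.379).

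Gpi1 was at 551, 579.9 and 509.9 FPKM with importazole, a range that held all 3 vehicle values, and the log2 difference was 0.01 (95% interval -0.15 to 0.17) with a sign that depended on scaling. Pfkp, at 93.1, 85.1 and 82.8 FPKM, also overlapped vehicle (-0.05, 95% interval -0.22 to 0.11). Pfkm was at 66.0, 68.5 and 65.1 FPKM with importazole, below the 71.2 to 76.0 FPKM of vehicle. Its difference of -0.13 did not pass (limma adjusted p = 0.281). Pfkfb3 was at 6.12, 5.93 and 6.05 FPKM with importazole, 1.26-fold the vehicle mean and above every vehicle library. Its log2 difference of 0.28 ± 0.07 missed the threshold (limma adjusted p = 0.0868; 95% interval, unadjusted, 0.12 to 0.44). Slc2a3 and Slc2a4 had log2 differences of -0.18 and -0.07 with overlapping libraries.

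The direct comparison asked whether these genes stood apart between the compounds, at the doses used, which differ. With ivermectin 6 of the 10 were lower and 0 higher than with importazole, beside 2.71% of all genes tested called lower, 0.714% higher and 3.42% either way (81 higher and 307 lower genes, and 191 and 274 after quantile normalization). The 6 were the same ones that fell against vehicle: Slc2a1, Hk1, Hk2, Gpi1, Pfkl and Pfkp. Both comparisons use the same ivermectin libraries, so this match is not an independent result. At an unadjusted p under 0.05 there were 8 of the 10, beside 2150 of the 11337 genes tested. The 8 took in Pfkm and Pfkfb3 as well, both higher with ivermectin. All 8 had no overlap between the groups, where 16.1% of all genes tested lay wholly lower with ivermectin, 8.04% wholly higher and 24.2% either.

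The mean of Slc2a1 was 25.2 ± 0.878 FPKM with ivermectin and 52.5 ± 2.12 with importazole, and its log2 difference was -1.03 ± 0.06 (limma adjusted p = 2.32e-06). Pfkl stood at 21.99 ± 3.93 FPKM with ivermectin and at 46.1 ± 7.13 with importazole, with a difference of -1.04 ± 0.14 (limma adjusted p = 0.00168). For Hk2 the means were 17.9 ± 1.74 FPKM with ivermectin and 26.1 ± 0.505 FPKM with importazole (-0.52 ± 0.08, limma adjusted p = 0.00321). The calls of these 3 genes held without any one library. Hk1 averaged 55.9 ± 6.35 FPKM with ivermectin and 76.6 ± 5.72 FPKM with importazole (-0.45 ± 0.09, limma adjusted p = 0.0212). Gpi1 averaged 419 ± 36.3 FPKM with ivermectin and 547 ± 35.2 FPKM with importazole (-0.39 ± 0.07, limma adjusted p = 0.0177). The calls of Hk1 and Gpi1 ended without ivermectin 1 (adjusted p = 0.0583 and 0.0514), importazole 1 (0.0759 and 0.0678) or importazole 2 (0.0962 and 0.0850). They ended as well when ivermectin 3 and vehicle 2, the libraries with Yam1 at 0, were left out together, as did that of Pfkp (adjusted p = 0.0724, 0.0599 and 0.0897 for Hk1, Gpi1 and Pfkp).

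Pfkp averaged 67.7 ± 6.08 FPKM with ivermectin and 87.0 ± 5.43 FPKM with importazole (-0.36 ± 0.07, limma adjusted p = 0.0274). It was the least steady of the 6 in this comparison. Its call ended without ivermectin 1, ivermectin 3, importazole 1, importazole 2 or importazole 3, with adjusted p of 0.0738, 0.0599, 0.0996, 0.0790 and 0.0502. It ended too after quantile normalization (-0.30, adjusted p = 0.0680) and after rescaling without Yam1 (-0.33, adjusted p = 0.0564). Pfkm averaged 75.1 ± 1.64 FPKM with ivermectin and 66.5 ± 1.79 with importazole, and its difference was 0.17 ± 0.06, which did not pass (limma adjusted p = 0.124). It passed once a GC and length trend was taken out, an alternative chosen after seeing the data (0.22, adjusted p = 0.0392). Pfkfb3 averaged 6.90 ± 0.352 FPKM with ivermectin and 6.04 ± 0.0957 FPKM with importazole, and the difference of 0.17 ± 0.07 did not pass (limma adjusted p = 0.249). Slc2a3 and Slc2a4 overlapped between the compounds, with differences of -0.02 (95% interval -0.23 to 0.19) and 0.08 (95% interval -0.08 to 0.24), and the sign for Slc2a3 turned with scaling.

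**Figure D3:**
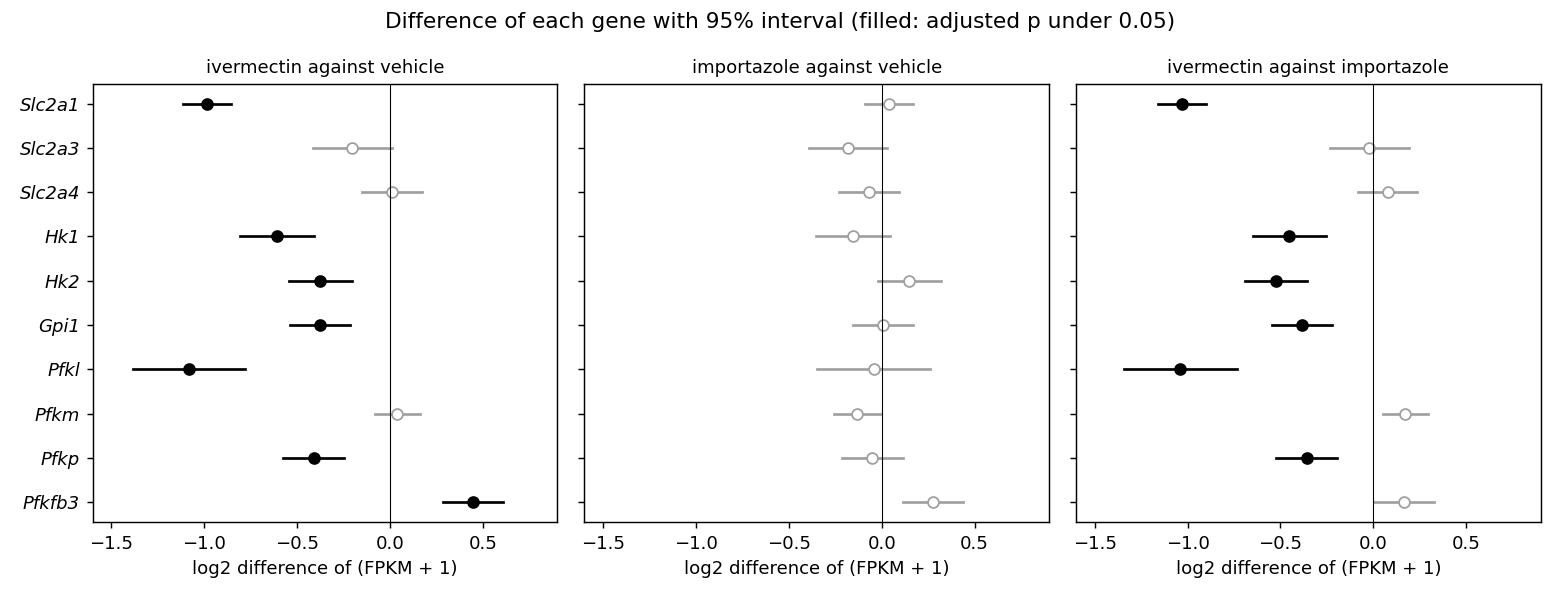
Log2 difference of FPKM + 1 for the 10 genes in the 3 comparisons, with unadjusted 95% intervals, filled where the adjusted p was under 0.05. The left and right panels hold 7 and 6 filled points, Slc2a1 and Pfkl near -1 in both, and the middle panel, importazole against vehicle, holds none.

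The profiles of the 7 called genes over the 9 libraries were set beside other tested genes with a mean of at least 5 FPKM. Predicted and clone-named genes (such as Gm and Rik symbols), small and mitochondrial transfer RNAs and ribosomal protein pseudogenes were left out. The 9 libraries fall into 3 groups and share their scaling, so these correlations are descriptive. Slc2a1 was most like Egln3, an oxygen-sensing prolyl hydroxylase (Pearson r = 0.998, Spearman rho = 0.917), the mitophagy receptor gene Bnip3 (0.995 and 0.717) and Ldha, a lactate dehydrogenase subunit (0.993 and 0.917). Pfkl was most like the glycolytic isomerase gene Tpi1 (0.979 and 0.950), Ndrg1 (0.978 and 0.917) and Gpi1 (0.976 and 0.933). Gpi1 was most like the pyruvate kinase gene Pkm (0.989 and 0.933), Zdhhc5 and Slco4a1, and Pfkp most like the non-muscle myosin gene Myh9 (0.968 and 0.933), Pfkl and Adm, which encodes a vasodilator peptide.

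The hexokinases had other neighbours. Hk1 was most like Hs6st1 (Pearson r = 0.984, Spearman rho = 0.933), the junction gene Jup (0.982 and 1) and Carhsp1 (0.981 and 0.983). Hk2 was most like the desmosome gene Dsp (0.989 and 0.983), the transcriptional repressor gene Bhlhe40 (0.979 and 0.883) and Spry1 (0.968 and 0.950). Pfkfb3, which rose, was most like the amino acid transporter gene Slc1a4 (0.983 and 0.950), the growth arrest gene Gadd45a (0.981 and 1) and Cars, the cytosolic cysteinyl-tRNA synthetase (0.979 and 0.950).

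Genes that use glucose beyond these steps were read from lists, which were also chosen with earlier results of these data known. In lower glycolysis, 6 of 11 tested genes fell with ivermectin against vehicle, 0 rose and 5 did not pass. Of all genes tested, 2.52% were called lower and 1.79% higher in that comparison. The median log2 difference of the list was -0.41, beside 0.01 over all genes tested. Aldoa, an aldolase gene, averaged 858 FPKM with ivermectin and 1198 FPKM with vehicle (-0.48 ± 0.07, limma adjusted p = 0.00336). Tpi1 averaged 558 and 836 FPKM with ivermectin and vehicle (-0.58 ± 0.07), and Pgk1, which makes the first ATP of glycolysis, 239 and 327 FPKM (-0.45 ± 0.05). The calls of these 3 held without any one library, which was not so for all 6. Pgam1, a phosphoglycerate mutase gene, averaged 317 FPKM with ivermectin and 422 FPKM with vehicle (-0.41 ± 0.08, limma adjusted p = 0.0174), a call lost without ivermectin 1 or 2 or vehicle 1 or 2 (adjusted p up to 0.0667). Pkm averaged 319.6 FPKM with ivermectin and 439.7 FPKM with vehicle (-0.47 ± 0.10, limma adjusted p = 0.0234), a call lost without ivermectin 1 or any one vehicle library (adjusted p up to 0.0787). Against importazole the same list had 7 lower with ivermectin, 0 higher and 4 not passed, beside 2.71% of all genes tested lower and 0.714% higher. Of these 7, Pkm lost its call in 13 of 20 alternatives and Gapdh in 8, with an adjusted p of 0.914 for Gapdh after quantile normalization. The Pgam1 call against importazole ended without ivermectin 1 or 2 or importazole 2 or 3 (adjusted p up to 0.0912). The aldolase gene Aldoc was lower with ivermectin (15.8 FPKM) than with vehicle (26.5 FPKM; -0.71 ± 0.09), and higher with importazole (37.5 FPKM) than with vehicle (0.48 ± 0.09, limma adjusted p = 0.0146). The importazole call of Aldoc ended without importazole 1 or 2 or vehicle 2 or 3, with adjusted p up to 0.0825.

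In the branches off the pathway, calls can be read beside the 2.52% of all genes tested that were lower and the 1.79% that were higher with ivermectin against vehicle, and the 1.69% that were higher with importazole. In the glycogen list 2 of 12 tested genes fell with ivermectin against vehicle and 10 did not pass, with a median of -0.08. The phosphoglucomutase gene Pgm2 averaged 38.9 FPKM with ivermectin and 62.3 FPKM with vehicle (-0.66 ± 0.07, limma adjusted p = 0.000265), a call that held without any one library. Gys1, muscle glycogen synthase, averaged 26.8 FPKM with ivermectin and 33.4 FPKM with vehicle (-0.31 ± 0.07, limma adjusted p = 0.0282), but the call ended without ivermectin 2 or 3, importazole 1, or vehicle 1 or 2, with adjusted p up to 0.0928. In the pentose phosphate list 0 of 8 tested genes passed against vehicle with ivermectin and 1 with importazole, Rpia, a pentose isomerase (8.15 FPKM with importazole and 5.64 with vehicle, 0.47 ± 0.10, limma adjusted p = 0.0448). The Rpia call ended without any one library other than vehicle 1 (adjusted p up to 0.156). In the hexosamine list 0 of 6 passed with ivermectin and 1 rose with importazole, Gfpt2, which opens that branch (8.84 FPKM with importazole and 5.79 with vehicle, 0.54 ± 0.09, limma adjusted p = 0.0116). The Gfpt2 call ended without importazole 1 or 2 or vehicle 3 (adjusted p up to 0.0661).

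For GLUT4 trafficking and insulin signalling 1 of 16 tested genes passed with ivermectin against vehicle, the insulin receptor substrate gene Irs2. It averaged 2.76 FPKM with ivermectin and 4.44 FPKM with vehicle (-0.53 ± 0.08, limma adjusted p = 0.00509). None of the 16 passed with importazole against vehicle. Of all genes tested, 4.31% were called with ivermectin against vehicle and 2.26% with importazole against vehicle. Of 11 further glucose carriers 2 were tested, Slc2a8 (14.4 FPKM with ivermectin, 13.3 with importazole and 13.6 with vehicle) and Slc2a9, and neither passed in any comparison. Of the 12 other hexose kinase and fructose phosphate genes 5 were tested, among them Pfkfb1, Pfkfb2 and Pfkfb4, the sister genes of Pfkfb3, and none passed in any comparison. The hexokinase family genes Hk3 and Hkdc1 averaged 0.0477 and 0.479 FPKM over the 9 libraries and were not tested. The 5 genes of the glucose-sensing list, among them Txnip, did not pass in any comparison.

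**Figure D4:**
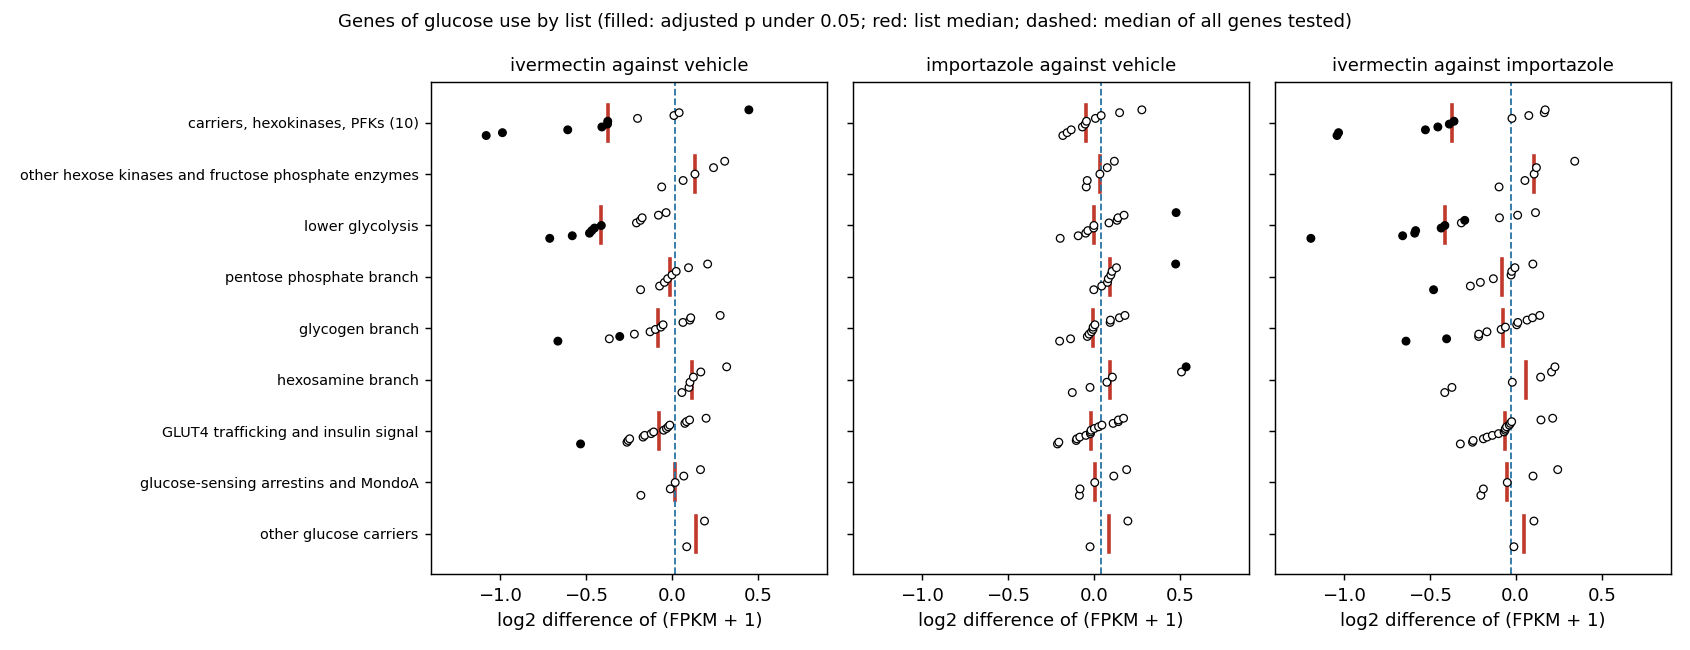
Log2 difference of FPKM + 1 for each tested gene of the lists, in 3 comparisons, filled where the adjusted p was under 0.05, with the list median in red and the median of all genes tested dashed. In the left panel 7 of the 10 carriers, hexokinases and phosphofructokinase genes and 6 of 11 genes of lower glycolysis are filled. In the other 7 lists 3 points are filled, 2 of 12 tested glycogen genes and 1 of 16 for GLUT4 trafficking and insulin signalling. Over all genes tested, 4.31% were called in that comparison.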

How the data were processed

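The 9 libraries were made from poly(A)-selected RNA and sequenced on the Ion Proton system, per the labels' protocols. Each line of a library's table holds a gene symbol and the FPKM the authors deposited for it, per the file headers. Cufflinks, STAR, Bowtie and Bowtie2 appear in the submitters' processing notes without version or role, beside mm10 and GRCm38. No source used here gives the annotation, strand setting or filters. FPKM is relative to all mapped fragments, so 1 abundant transcript moves all other values. Where a symbol had several lines (48 symbols, none among the 10 genes) they were added.

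The 11337 genes that reached 1 FPKM in 3 or more libraries were fitted as log2(FPKM + 1) with limma 3.58.1 in R 4.3.3, group as the only term, all 9 libraries, trend and robust moderation. P-values are two-sided and adjusted over all genes tested. The procedure was also run on simulated data with independent noise for each gene and library. That simulation held no library-wide shift such as that of Yam1, so it does not bear on such shifts. Figures used matplotlib 3.10.9. Gene locations are from GENCODE M21, promoters from RefSeq. All 10 genes are named whatever their result; from the lists genes past the test, and for comparison some that did not pass or were not tested, chosen after their values were seen; and for each called gene its 3 most similar profiles. The members and lists were chosen with earlier results of these data known.

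Alternatives were pseudocounts of 0.1 and 0.5, a 5 FPKM filter and none, 3 other scalings, fits to 6 libraries, a replicate block and leaving out libraries. An alternative that takes out a GC and length trend was chosen after seeing the data.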

Additional observations from a re-analysis of the deposited data

How the results depend on the processing

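Without a filter the count of called genes was 132 for ivermectin against vehicle, 74 for importazole against vehicle and 108 for ivermectin against importazole, with 2 and 1 of the 10 glucose genes called in the first and last. Slc2a1 stayed called in both of these and Pfkfb3 in the first. Hk1, Hk2, Gpi1, Pfkl and Pfkp lost their calls in both. Their limma adjusted p values included 0.0584 and 0.0787 for Pfkl, and 0.0779 and 0.202 for Hk1. Fits to the 6 libraries compared gave 274 genes for ivermectin against vehicle, with 6 of the 10 called there (Hk2 lost, adjusted p = 0.0681) and 5 in the direct comparison (Pfkp lost, adjusted p = 0.0625). Without both libraries that list Yam1 at 0 the counts were 195, 161 and 233 in the same order, with 3 of the 10 in the first and 3 in the last. Without 1 library the counts ranged from 243 to 399, 128 to 320 and 177 to 396, and those of the 10 genes from 5 to 7, 0 to 0 and 3 to 6. Whether numbers shared between groups pair the libraries was not settled by their correlations. Deviations of same-numbered libraries correlated at -0.21 to 0.14, and the own number correlated best in 7 of 18 cases. Between ivermectin and importazole the values were 0.017, 0.145 and 0.059 for numbers 1, 2 and 3. Between ivermectin and vehicle they were 0.063, -0.167 and -0.210, and between importazole and vehicle -0.045, -0.049 and 0.082. With the replicate block the counts were 354, 175 and 257, with 7, 0 and 5 of the 10 called, Pfkp being lost in the direct comparison (adjusted p = 0.0520). The higher to lower split was 192 to 64 for importazole against vehicle. Quantile normalization made it 159 to 117, median-of-ratios scaling 159 to 118, rescaling without Yam1 163 to 105 and removal of the GC and length trend 201 to 157. For ivermectin against importazole it was 81 to 307, and 191 to 274, 161 to 280, 135 to 277 and 217 to 322 under the same scalings. The 7 calls of ivermectin against vehicle held under each of these scalings. Signs turned for values near 0 that passed in no setting, and the cause was not tested. Slc2a4 (ivermectin against vehicle) was -0.0016 after median-of-ratios scaling, -0.0041 after rescaling without Yam1 and -0.0212 to 0.0268 without 1 library. With importazole against vehicle, Slc2a1 was -0.0053 and -0.0024 under these scalings. Gpi1 was -0.0314, -0.0394, -0.0365 and -0.0259 after quantile normalization, median-of-ratios scaling, rescaling without Yam1 and trend removal, and -0.0348 to 0.0579 without 1 library. Pfkl was at 0.0122 when the pair of libraries with Yam1 at 0 was left out, and -0.14 to 0.0799 without 1 library. Slc2a3 (ivermectin against importazole) was 0.0039, 0.0098, 0.0052 and 0.0269 after quantile normalization, median-of-ratios scaling, rescaling without Yam1 and trend removal, and -0.0629 to 0.0029 without 1 library. Depth is unknown, so no counting error could be given, and 3 libraries a group limit the precision.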
